A study of Mus musculus with 2 samples.

Results

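The genes described here are 42 ligands, receptors, antagonists and feedback targets of the transforming growth factor beta (TGF-beta) superfamily, which includes the bone morphogenetic proteins (BMPs) and myostatin. They were chosen by name, out of 19938 genes with a probe set of their own, and their expression was followed in the mouse mandible at E18.5 (embryonic day), shortly before birth. Mandible of the Myf5:Myod null genotype on the BALB/c background, called the double knockout below, was compared with wild-type mandible, also BALB/c. Each genotype was represented by 1 Affymetrix array, so no difference has a replicate check, no test between the genotypes was possible, and the number of embryos behind each RNA is not stated in the labels. Myf5 and MyoD are bHLH factors that turn precursor cells into myoblasts, and the series asks what muscle contributes to the growth of the lower jaw.

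Ligands of this superfamily bind pairs of type I and type II receptor kinases at the cell surface, and these phosphorylate Smad proteins that carry the signal to the nucleus. TGF-betas, activins and myostatin act mainly through one branch of Smads and BMPs through another, and BMP signalling switches on its own inhibitors (Smad6, Smad7, Bambi) and the Id genes. In the developing jaw BMPs direct bone, cartilage and tooth formation, while myostatin is made by muscle cells and restrains their growth. Id proteins bind the dimer partners of MyoD-type factors and hold back muscle differentiation.

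All values are log2 signals, and differences are double knockout minus wild type. The floor below which a signal was not interpreted was the median of the probe sets with 1 annotated gene, 6.21 on the double-knockout array and 6.20 on the wild-type array. Values below it were raised to it, so a difference with the double knockout at the floor is a bound. A gene above the floor on at least 1 array is called measured, and there were 10336 such genes with a median difference of 0.098 and a 25th to 75th percentile range of -0.062 to 0.24. The targeted genes were lower in the double knockout, but Myf5 was close to the floor even in the wild type. Myf5 had a deposited 4.95 in the double knockout and 6.31 in the wild type, a floored difference of only -0.11, which is a bound. Myod1 had 6.49 in the double knockout and 7.14 in the wild type. Whether the probe sets of Myf5 and Myod1 lie inside the deleted sequence is not stated in the labels. Of 14 skeletal muscle markers, 13 were at the floor in the double knockout and all 14 differed downward by 2-fold or more, and their summed linear signal, floored, was 1040.5 in the double knockout and 38216 in the wild type. The first of these sums is an upper bound. Bone and tooth markers were present on both arrays (Ibsp at 12.46 in the double knockout and 12.24 in the wild type, Ambn at 11.90 in the double knockout and 11.60 in the wild type), and of the 7 cartilage markers 4 were above the floor. The arrays also differed in a Y-linked transcript, Eif2s3y (6.55 in the double knockout and 2.38 in the wild type), while Xist, the transcript of the inactive X chromosome, was high on both (10.22 in the double knockout and 10.87 in the wild type). The Y-linked Uty (6.20 in the double knockout and 2.43 in the wild type) and Kdm5d (5.27 and 3.42) ran the same way as Eif2s3y. Both were below the floor on both arrays. The sex of the embryos was not taken from these values, and the only measured gene of the set on chromosome X is Chrdl1. A difference in sex between the arrays, if there is one, could not be told apart from genotype for any gene. Less RNA of a gene in whole mandible can come from fewer cells of a type or from less RNA per cell, and these cannot be told apart here. More RNA of a gene can likewise come from a larger share of a cell type in the 6 µg of RNA or from more RNA per cell. These cannot be told apart here either.

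Of the 42 genes, 36 were measured, 33 of them on both arrays. Myostatin was the 1 ligand below the floor in the double knockout and above it in the wild type. Signals in the double knockout were modestly higher across BMP ligands, the inhibitors Smad6, Smad7 and Bambi, and the Id genes. Receptors and most secreted antagonists lay close to the median of all genes. At the 2-fold limit 1 gene was lower in the double knockout, Mstn, and 0 were higher. Over all measured genes the shares past that limit were 2.74% lower and 0.513% higher. At 1.5-fold, 1 gene was lower and 3 were higher (Id2, Smad6 and Bmp3), and over all measured genes 5.11% were lower and 3.06% higher. With the arrays centred so that the median of all genes was 0, or after quantile normalisation, the split was 1 lower and 1 higher (Id2). Of all measured genes, 528 were lower and 316 higher at 1.5-fold as deposited, and 655 lower and 185 higher with the median set to 0. The shares were 6.34% lower and 1.79% higher with the median set to 0. After quantile normalisation they were 5.38% lower and 2.56% higher. Bmp3 (0.586) lay just inside the 1.5-fold limit of 0.585, and Id3 (0.575), Bmp8a (0.566) and Bmp7 (0.564) just outside it. In all 28 of the 36 were higher and 7 lower (23 and 13 with the median set to 0), against 6917 of the 10336 measured genes higher. The median difference of the 36 was 0.26, and 19 of them lay above the 75th percentile of measured genes. The only spread that could be measured was that between the 2 brightest probe sets of a gene, both above the floor on both arrays. The gap between their 2 differences had an SD of 0.22 over 528 genes. This is a spread of gaps, not of single differences, and it leaves out variation between animals. Each of the 42 genes had 1 probe set, so even this check was not available for them.

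**Figure D1:**
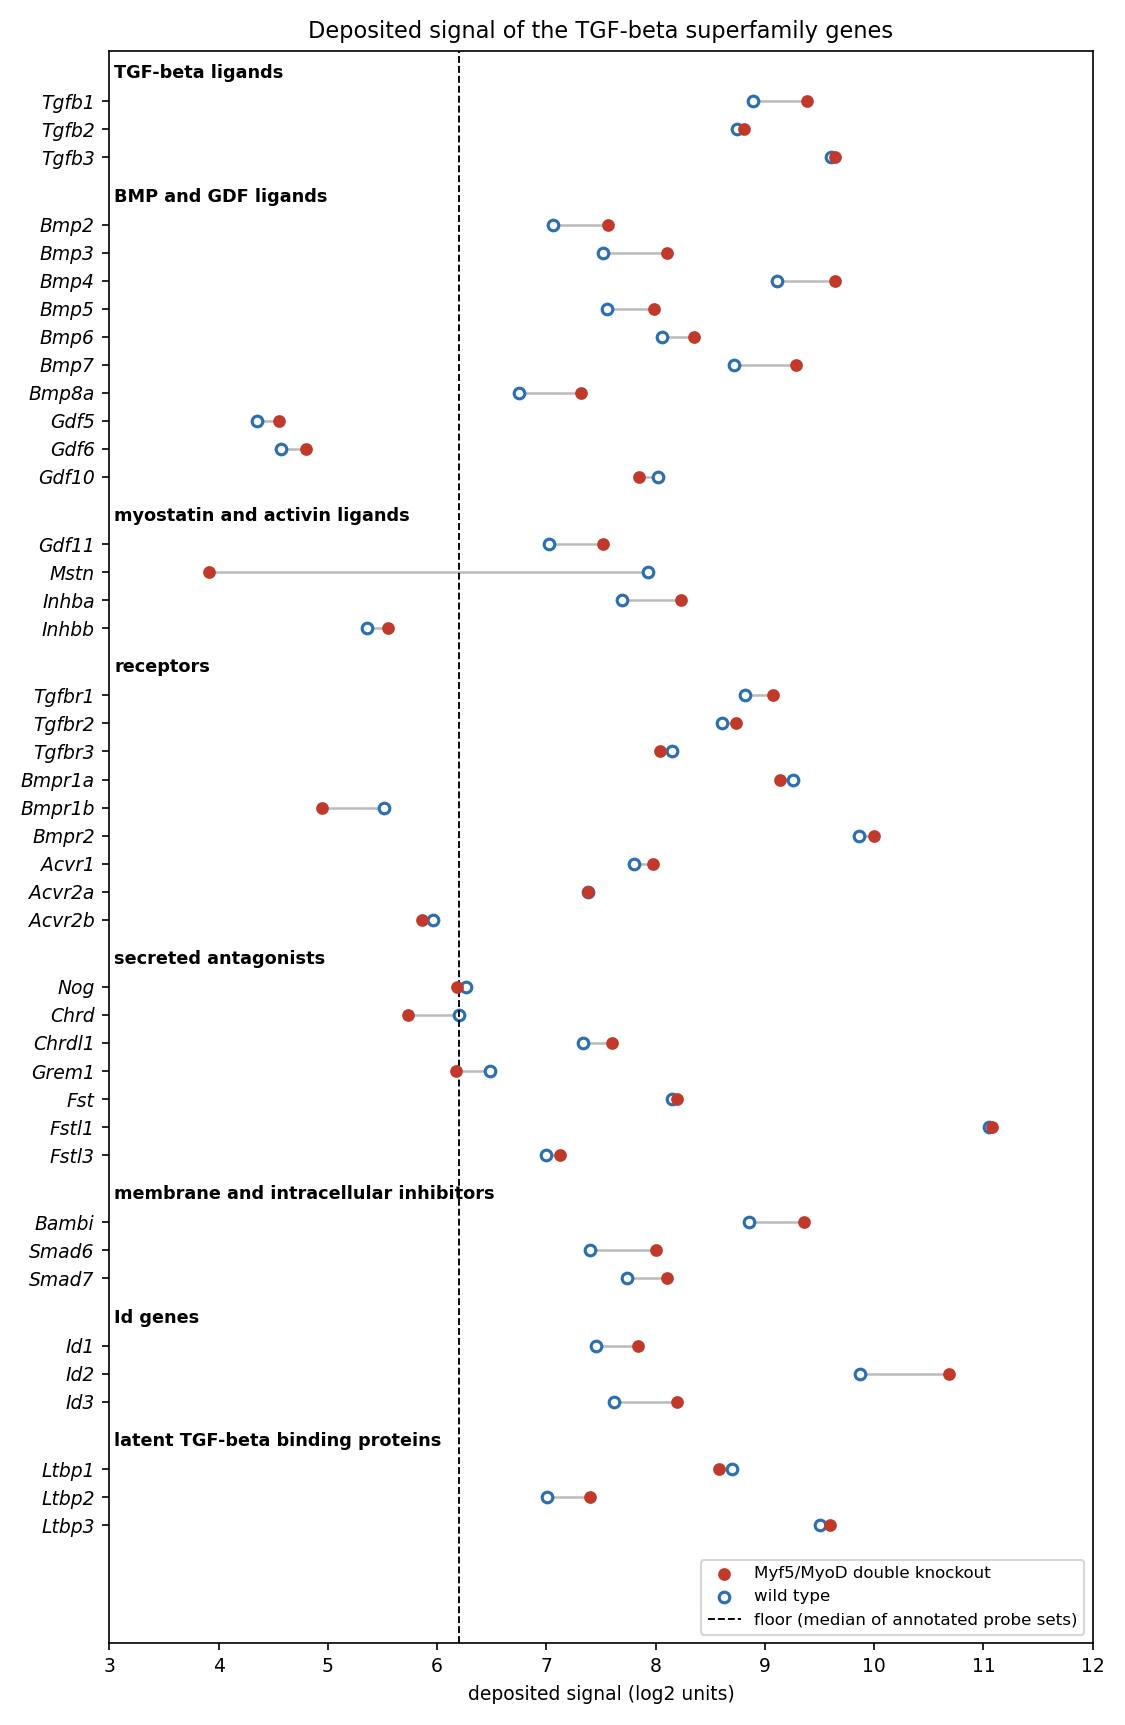
Deposited log2 signal (horizontal axis) of the 42 TGF-beta superfamily genes by class, with filled points for the double knockout, open points for the wild type and a dashed line at the floor. Mstn stands at 3.91 in the double knockout and 7.93 in the wild type; points of different genes come from different probes and are not comparable in height.

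Myostatin, encoded by Mstn and secreted by muscle fibres to limit their own size, was the gene of the set with the widest gap. Its deposited signal was 3.91 in the double knockout, far below the floor, and 7.93 in the wild type. The difference of the floored signals was -1.72, a gap of at least 3.30-fold, with the double knockout lower. A lower floored difference was found in 1.40% of measured genes. Skeletal muscle markers differed in the same direction: the actins Actc1 and Acta1 by at least 76.8-fold and 63.6-fold, and the troponin Tnnt3 by at least 55.5-fold. Myostatin's closest relative, Gdf11, a ligand that patterns the axial skeleton, differed in the opposite direction, with 7.52 in the double knockout and 7.03 in the wild type. Inhba, which encodes the subunit of activin A and is required in mice for incisor and lower molar development, had 8.23 in the double knockout and 7.69 in the wild type, 1.45-fold higher. Inhbb, the subunit of activin B, was below the floor on both arrays, at 5.55 in the double knockout and 5.36 in the wild type.

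MyoD and Myf5 bind the E-box, CANNTG, and for that reason the sequence just upstream is shown for Mstn, Id2 and Smad6, which differed by 1.5-fold or more. Bmp3, the other such gene, is named only. The sequences are from RefSeq (GRCm38.p6), cover the 250 bases before the annotated start and are written 5′ to 3′ on the gene's strand. Capitals mark E-boxes and the GC-rich element GGCGCC, which is known from BMP-responsive promoters. Both motifs read the same on either strand, and CAGCTG is 1 form of the E-box. The Mstn window is chr1:53061390-53061639 on the plus strand, that of Id2 is chr12:25096093-25096342 on the minus strand, and that of Smad6 is chr9:64022060-64022309 on the minus strand.
Mstn: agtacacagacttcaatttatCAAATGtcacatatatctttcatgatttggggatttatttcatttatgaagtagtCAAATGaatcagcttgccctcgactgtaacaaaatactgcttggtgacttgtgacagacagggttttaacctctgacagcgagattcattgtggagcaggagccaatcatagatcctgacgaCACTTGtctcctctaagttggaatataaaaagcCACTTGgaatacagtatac
Id2: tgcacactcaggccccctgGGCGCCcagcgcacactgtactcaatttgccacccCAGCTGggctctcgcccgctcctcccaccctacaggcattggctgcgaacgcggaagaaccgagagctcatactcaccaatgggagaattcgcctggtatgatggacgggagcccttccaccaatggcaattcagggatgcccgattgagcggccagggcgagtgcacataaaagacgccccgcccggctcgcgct
Smad6: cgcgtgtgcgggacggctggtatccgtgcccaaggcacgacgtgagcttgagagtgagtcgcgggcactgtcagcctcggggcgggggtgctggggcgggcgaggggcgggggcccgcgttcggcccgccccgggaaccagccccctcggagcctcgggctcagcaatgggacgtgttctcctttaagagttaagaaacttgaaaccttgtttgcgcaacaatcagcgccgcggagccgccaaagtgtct
The Mstn window held 4 E-boxes. They are CAAATG beginning 229 and 174 bases before the start and CACTTG beginning 52 and 19 bases before it. Of 32851 promoter windows of this length, 3.84% held as many or more, and 66.2% held at least 1. The Id2 window held 1 E-box, CAGCTG, 196 bases before the start, and 1 GGCGCC, 231 bases before it. CAGCTG was present in 13.0% of all windows and GGCGCC in 9.59%. Neither motif was among the letters of the Smad6 window. Of the 42 genes, 29 had windows in the table, 33 windows in all, of which 14 held an E-box, 3 held CAGCTG and 6 held GGCGCC. A match of letters is a description of the sequence and not evidence of binding.

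All 7 BMP-named ligands were higher in the double knockout, by 0.30 to 0.59 as deposited. Setting the median to 0 takes 0.098 off every difference, too little to turn any of these signs. Their median was 0.53, and all 7 lay above the 75th percentile of measured genes. Bmp2, an inducer of bone, had 7.56 in the double knockout and 7.06 in the wild type. Bmp4, which signals between epithelium and mesenchyme in tooth and jaw buds, had 9.65 in the double knockout and 9.11 in the wild type. Bmp7, a ligand of eye, kidney and skeletal development, had 9.28 in the double knockout and 8.72 in the wild type. These 3 were 1.42-fold, 1.45-fold and 1.48-fold higher. Bmp3, a bone-made ligand that counteracts bone-inducing BMPs, had 8.10 in the double knockout and 7.52 in the wild type, above 97.0% of measured genes. Bmp8a had 7.32 in the double knockout and 6.75 in the wild type. Bmp5, known for its role in the shape of skeletal elements, had 7.99 in the double knockout and 7.55 in the wild type. Bmp6, a ligand of cartilage and iron regulation, differed least of the 7, with 8.35 in the double knockout and 8.05 in the wild type. None of these 7 differences reached 2-fold. Gdf10, a close relative of Bmp3, ran the other way, at 7.85 in the double knockout and 8.02 in the wild type. The joint ligands Gdf5 and Gdf6 were below the floor on both arrays, at 4.56 and 4.80 in the double knockout and 4.35 and 4.58 in the wild type.

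Of the 3 TGF-betas, Tgfb1, the form stored in bone matrix and made by many blood-derived cells, had 9.38 in the double knockout and 8.89 in the wild type, 1.41-fold higher. Tgfb2 had 8.81 in the double knockout and 8.74 in the wild type. Tgfb3, the form needed for palate fusion, had 9.64 in the double knockout and 9.60 in the wild type. Tgfb2 and Tgfb3 differed by 0.06 and 0.04, less than the median of all genes, and their sign turned with the median set to 0 (-0.034 and -0.058).

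**Figure D2:**
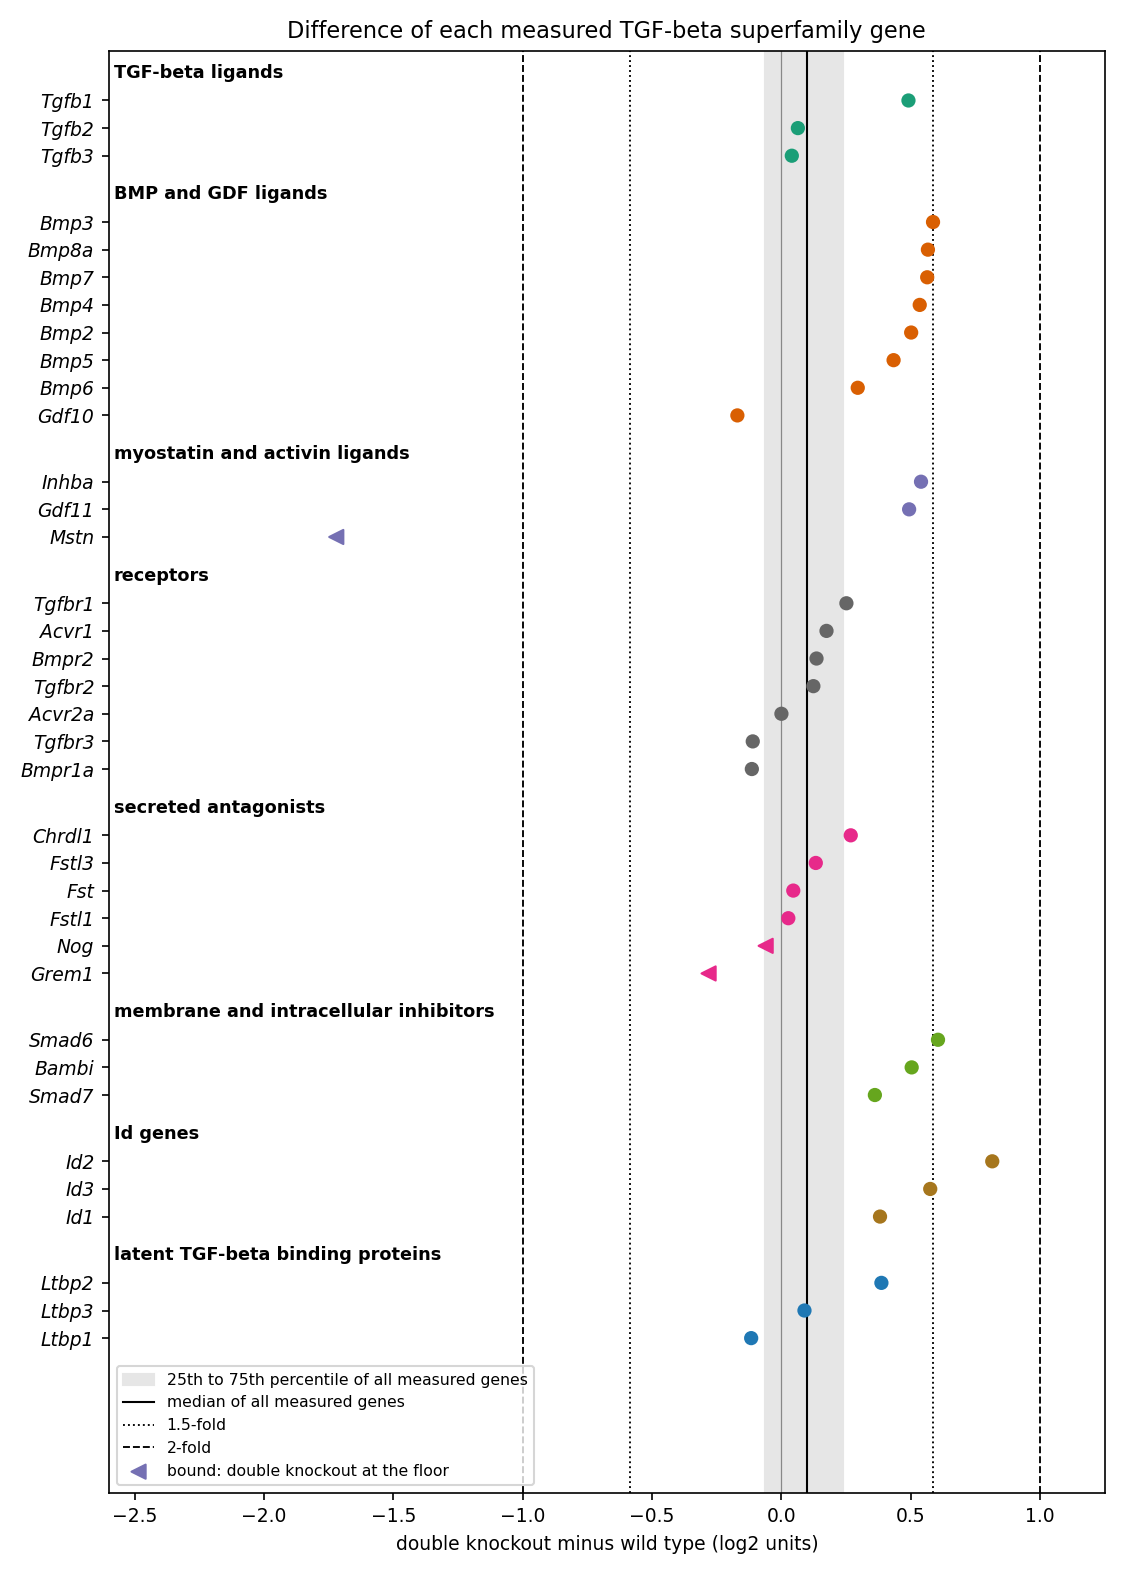
Difference in log2 signal (double knockout minus wild type, horizontal axis) of the 36 measured genes by class, 1 point per gene; triangles are bounds with the double knockout at the floor. BMP-named ligands, intracellular and membrane inhibitors and Id genes lie right of the grey band (25th to 75th percentile of all measured genes), Mstn lies at -1.72, and most receptors and antagonists lie in or near the band.

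The 7 measured receptors differed by -0.11 to 0.25, with a median of 0.12, close to the 0.098 of all genes, and 0 of 7 reached 1.5-fold. The TGF-beta type I receptor Tgfbr1 had 9.07 in the double knockout and 8.82 in the wild type, the largest difference of the class. Its type II partner Tgfbr2 had 8.73 in the double knockout and 8.61 in the wild type, and the co-receptor betaglycan, Tgfbr3, had 8.04 in the double knockout and 8.15 in the wild type. Among BMP receptors, the type I receptor Bmpr1a had 9.14 in the double knockout and 9.26 in the wild type. The type II receptor Bmpr2 had 10.00 in the double knockout and 9.86 in the wild type. The type I receptor Acvr1 had 7.98 in the double knockout and 7.80 in the wild type. Acvr2a, a type II receptor for activin and myostatin, was deposited at exactly 7.38 on both arrays, 1 of 1626 probe sets with identical values. The other myostatin receptor, Acvr2b (5.86 in the double knockout and 5.96 in the wild type), and the cartilage receptor Bmpr1b (4.95 in the double knockout and 5.51 in the wild type) were below the floor on both arrays.

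Most secreted antagonists lay near the median of all genes or near the floor. Of 6 measured, 0 reached 1.5-fold, and their median was 0.036 (-0.061 with the median of all genes set to 0). Follistatin (Fst), which binds activin and myostatin, had 8.19 in the double knockout and 8.15 in the wild type. The related Fstl3 had 7.13 in the double knockout and 6.99 in the wild type, and the matrix glycoprotein Fstl1 had 11.08 in the double knockout and 11.05 in the wild type. Fst and Fstl1 were lower with the median set to 0 (-0.052 and -0.071). The BMP antagonist Chrdl1 had 7.60 in the double knockout and 7.33 in the wild type, the 1 antagonist above the 75th percentile of measured genes. Gremlin (Grem1), a BMP antagonist, was above the floor in the wild type alone, at 6.18 in the double knockout and 6.49 in the wild type. Noggin (Nog) was likewise above it in the wild type alone, at 6.18 in the double knockout and 6.27 in the wild type. Chordin (Chrd), which also binds BMPs outside the cell, was below the floor on both arrays, at 5.74 in the double knockout and 6.198 in the wild type. So near the floor, none of these 3 signals could have shown a 1.5-fold drop.

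All 3 membrane and intracellular inhibitors were higher in the double knockout, with a median of 0.50. Smad6, the inhibitory Smad of the BMP branch, had 8.002 in the double knockout and 7.40 in the wild type, 1.52-fold higher and above 97.4% of measured genes. Smad7, which blocks both branches, had 8.10 in the double knockout and 7.74 in the wild type, 1.28-fold higher. Bambi, a receptor-like protein without a kinase, had 9.36 in the double knockout and 8.85 in the wild type, 1.42-fold higher.

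All 3 Id genes were also higher, with a median of 0.58. Id2 had 10.69 in the double knockout and 9.87 in the wild type, a 1.76-fold difference that exceeded those of 98.96% of measured genes and was the largest upward difference of the 36. Id3 had 8.20 in the double knockout and 7.62 in the wild type, 1.49-fold higher. Id1 had 7.84 in the double knockout and 7.45 in the wild type, 1.30-fold higher. The summed linear signal of the 3 genes was 2171 in the double knockout and 1310 in the wild type.

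The latent TGF-beta binding proteins, which hold TGF-beta in the matrix, were mixed. Ltbp2, a microfibril protein that does not bind latent TGF-beta, had 7.40 in the double knockout and 7.01 in the wild type. Ltbp1 had 8.58 in the double knockout and 8.70 in the wild type. Ltbp3, which is needed for bone and tooth growth, had 9.59 in the double knockout and 9.50 in the wild type, and its difference of 0.09 became -0.0086 with the median set to 0.

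A further 84 genes of the pathway that are not among the 42 were listed to place these values. Of these 53 were measured. Past the 1.5-fold limit 5 were higher and 3 lower (0 and 1 past 2-fold), with a median difference of 0.13, beside 3.06% of all measured genes higher and 5.11% lower. The split was 1 higher and 4 lower with the median set to 0, beside 1.79% and 6.34% of all measured genes. It was 3 higher and 3 lower after quantile normalisation, beside 2.56% and 5.38%. The co-receptors held the lowest difference of the pathway. Hemojuvelin (Hjv), a BMP co-receptor made in skeletal muscle and liver, had a deposited 4.38 in the double knockout and 9.78 in the wild type, and was at least 11.9-fold lower. Its relative Rgmb, another BMP co-receptor, had 7.45 in the double knockout and 8.15 in the wild type, 1.62-fold lower. The endothelial co-receptor endoglin (Eng) had 9.50 in the double knockout and 9.14 in the wild type, and the activin type I receptor Acvr1b had 7.61 in the double knockout and 7.17 in the wild type.

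Among other extracellular regulators, Ltbp4, a latent TGF-beta binding protein of elastic fibres, was 1.502-fold lower, at 8.58 in the double knockout and 9.17 in the wild type. Sost, the osteocyte product sclerostin, was 1.57-fold higher, at 7.23 in the double knockout and 6.58 in the wild type. Sostdc1, an inhibitor of BMP and Wnt signalling in tooth buds, was 1.51-fold higher, at 9.44 in the double knockout and 8.84 in the wild type. With the median set to 0, 0 of these regulators were higher and 2 lower past 1.5-fold, beside 1.79% and 6.34% of all measured genes. The protease Bmp1, which cuts procollagen and chordin, had 10.62 in the double knockout and 10.33 in the wild type, and the TGF-beta activator Thbs1 had 10.24 in the double knockout and 10.23 in the wild type. The 15 Smads and Smad regulators differed by -0.16 to 0.38 and 0 reached 1.5-fold, with the shared Smad4 at 9.69 in the double knockout and 9.81 in the wild type and the TGF-beta-induced Pmepa1 at 9.23 in the double knockout and 9.12 in the wild type. Only 2 of 14 other ligands with a probe set were measured, Gdf7 (0.13) and the inhibin subunit Inha (-0.065).

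Listed BMP targets other than the 42 genes were higher in 8 of 8 measured cases, with a median of 0.39. The smallest of these differences, 0.12, exceeds the 0.098 taken off when the median is set to 0. As deposited, 66.9% of all measured genes were higher. The 8 include Smad9, which is also in the list of Smads and had the largest difference there (0.38). Of the 8, 3 were at least 1.5-fold higher (2 after quantile normalisation and 1 with the median set to 0), beside 3.06% of all measured genes as deposited. That share was 2.56% after quantile normalisation and 1.79% with the median set to 0. The homeobox genes Msx1 and Msx2, which act with BMP4 in tooth and jaw mesenchyme, were 1.72-fold and 1.59-fold higher. Msx1 had 8.11 in the double knockout and 7.33 in the wild type, and Msx2 had 8.52 in the double knockout and 7.85 in the wild type. Hey1 had 9.02 in the double knockout and 8.43 in the wild type, and the bone factors Sp7 and Dlx5 differed by 0.40 and 0.31. Listed TGF-beta targets were higher in 4 of 7 measured cases (2 with the median set to 0), with a median of 0.078, and 0 of 7 reached 1.5-fold. The matrix genes Col1a1 and Fn1 among them differed by 0.13 and 0.08.

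**Figure D3:**
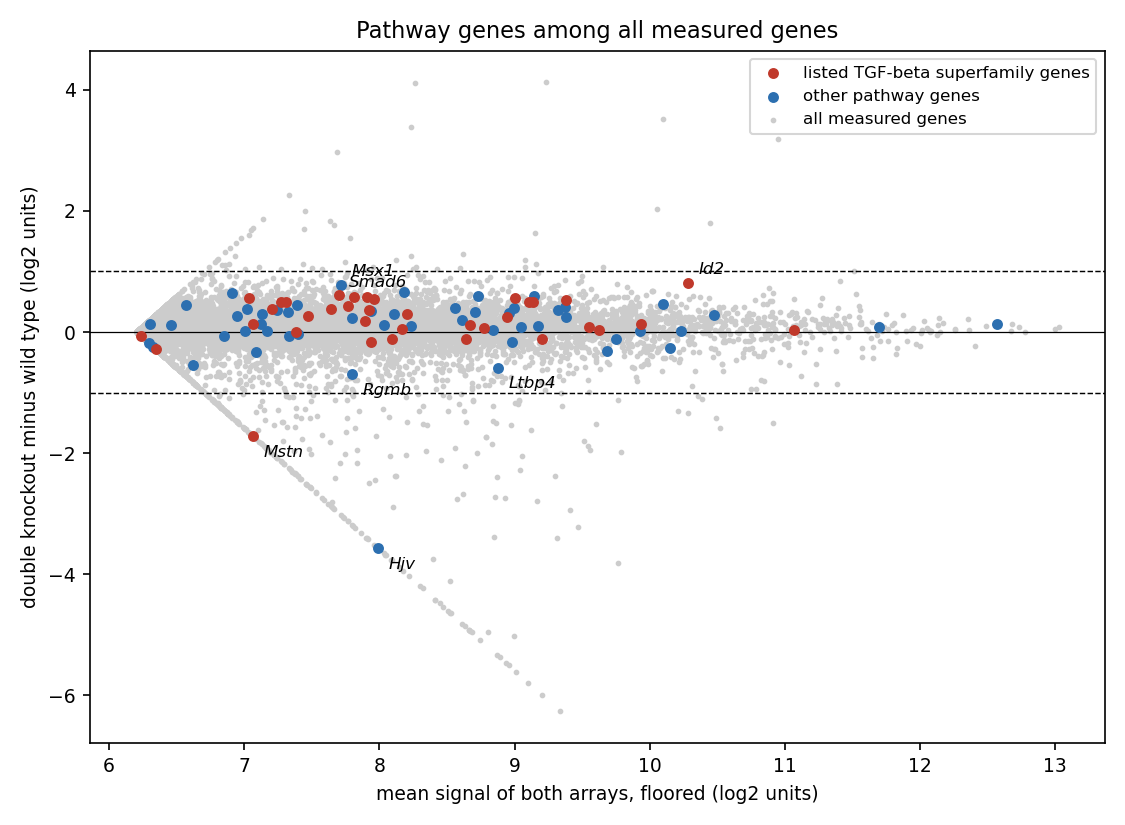
Difference in log2 signal (double knockout minus wild type, vertical axis) against the mean floored signal of both arrays for all 10336 measured genes in grey, the listed TGF-beta superfamily genes in red and 53 further pathway genes in blue; dashed lines mark 2-fold. Mstn and Hjv lie on the diagonal made by the floor, with the double knockout at the floor, and no red point lies above the upper dashed line.

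Markers of several jaw tissues were also mostly higher in the double knockout, by sizes that differed between lists. Bone markers, of which Sp7 is also in the list of BMP targets, were higher in 5 of 5 measured cases with a median of 0.55, and their summed linear signal was 10881 in the double knockout and 8407 in the wild type. Tooth markers were higher in 6 of 6 cases with a median of 0.58, and summed to 12979 in the double knockout and 10278 in the wild type. Osteoclast markers were higher in 6 of 6 cases with a median of 0.88, and summed to 12733 in the double knockout and 7952 in the wild type. Cartilage markers were higher in 3 of 4 measured cases with a median of 0.42, while Matn1, Comp and Col9a1 were below the floor on both arrays. Mandibular patterning genes, 2 of which are also in the list of BMP targets, were higher in 6 of 6 cases with a median of 0.54. Salivary gland markers were higher in 8 of 8 cases with a median of 3.28, and summed to 17215 in the double knockout and 2000.4 in the wild type (floored). Among these, Prol1 was below the floor in the wild type (4.77), so its difference is a bound. The share of each tissue in either RNA was not measured, and its part in the higher BMP, Smad6 and Id signals was not tested. Tendon markers were lower in 5 of 6 measured cases with a median of -1.01. The endothelial and fibroblast lists had medians of 0.08 and 0.15, and the smooth muscle list -0.057, with a range of -0.93 to 0.08. The epidermal and macrophage lists had medians of -0.14 and -0.13, but their genes ran both ways. The range was -0.88 to 0.87 in the epidermal list and -0.53 to 0.87 in the macrophage list. The Schwann cell and nerve list rested on 2 measured genes (0.45). In the list of myoblasts and satellite cells 5 of 6 were lower with a median of -0.38, and Pax3 was higher at 7.54 in the double knockout and 6.87 in the wild type.

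**Figure D4:**
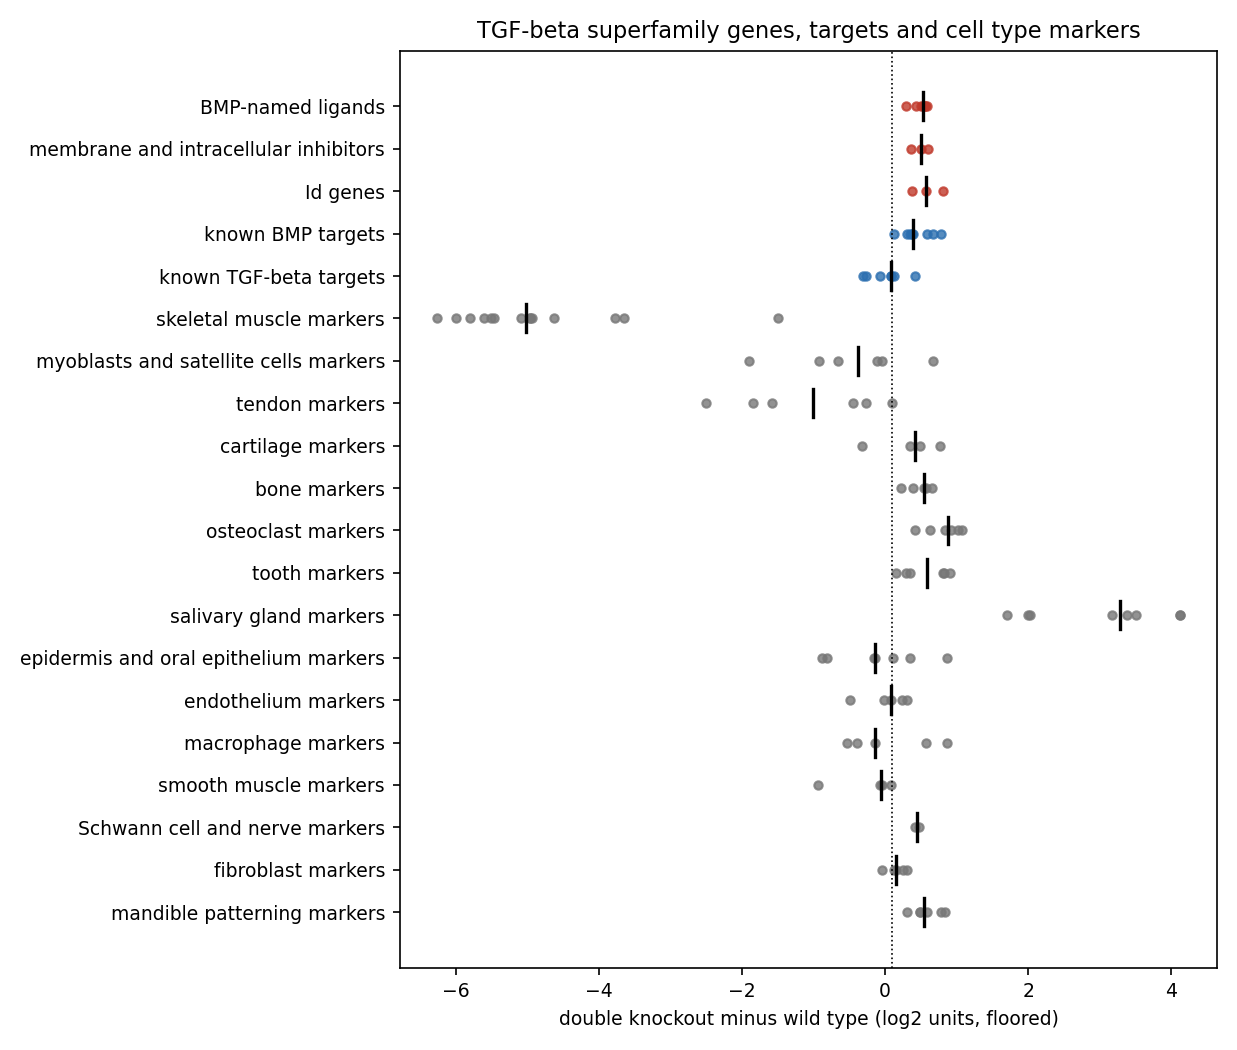
Difference in log2 signal (double knockout minus wild type, horizontal axis, floored) of each measured gene by list, with a black bar at each list's median and a dotted line at the median of all measured genes. BMP ligands, inhibitors, Id genes and BMP targets had medians of 0.53, 0.50, 0.58 and 0.39. Bone, tooth, cartilage and mandibular patterning lists had 0.55, 0.58, 0.42 and 0.54, and the Schwann cell and nerve list 0.45. TGF-beta targets (0.078) lie near the dotted line.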

How the data were processed

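Total RNA (6 µg) from E18.5 mandible was labelled with biotin and hybridised to Affymetrix arrays, 1 per genotype, per the labels' protocols. The authors deposited log2 values for 35557 probe sets. The base was read from the values (1.42 to 13.35), and the submitters' processing notes name MAS5. Background correction, normalization, logarithm step and genome build are not given in the sources used here. The ratio of the 2% trimmed means was 1.02 (double knockout over wild type), so arrays were compared as deposited, under a limit of 5%. If the authors equalised the arrays, this ratio shows nothing about the RNA.

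Probe sets were named by GEO's platform annotation, in which 21789 named 1 gene, 1621 several and 12147 none. All 42 genes matched the RefSeq table (GRCm38.p6) by Entrez identifier. A gene was represented by its probe set of highest mean linear signal. Values were floored at the 50th percentile of single-gene probe sets, and counts were made at 2-fold and 1.5-fold. The 42 genes, all other lists, the motifs and the genes shown by sequence were chosen with earlier results of these data known. The text names the 42 genes, the targeted genes and pathway genes at least 1.5-fold apart. Besides these it names the 2 brightest of each pathway list and up to 3 bright markers per list. Pax3, Prol1, Gdf7, Inha, Smad9, Eif2s3y, Uty, Kdm5d, Xist and the cartilage markers below the floor were named after their values were seen. Alternatives changed the scaling, the floor and the probe set rule. With 1 array per genotype no p-value is given. The procedure was tested on simulated data, with large changes set in bright genes and little noise. That test does not cover the smaller differences or dimmer genes described here. Python 3.11.15, numpy 2.4.6, pandas 2.3.3, scipy 1.17.1 and matplotlib 3.10.9 were used.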

Additional observations from a re-analysis of the deposited data

How the results depend on the processing

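The directions of Mstn, the 7 BMP-named ligands, Smad6, Smad7, Bambi and the 3 Id genes held under each alternative that could measure them. The floors and the probe set rules could not have reversed them. Setting the median to 0 takes only 0.098 off a difference. Quantile normalisation moved Bmp6, the smallest upward difference among them, from 0.30 to 0.25. These alternatives are therefore no check on the directions. With a 75th-percentile floor, 0 genes were lower past 2-fold and 0 past 1.5-fold, because the wild-type Mstn signal is then only 0.19 above the floor. Over all genes measured under that floor, 2.62% were lower past 2-fold and 4.99% past 1.5-fold. The number of genes higher past 1.5-fold was 1 with the median difference of measured genes set to 0, 1 after quantile normalisation, 1 under the 75th-percentile floor and 3 under the other 4 alternatives. The shares of all measured genes were 1.79%, 2.56% and 2.65% in turn, and 3.06% to 3.72% under the other 4. The difference of Mstn was -3.65 under a 25th-percentile floor and -4.01 with no floor. The median difference of the set ran from 0.16 (median set to 0) to 0.26. Taking the median over probe sets, or adding probe sets that name several genes, left the 42 genes' values as they were, since each has 1 probe set and none is named by a shared one. Leaving out a replicate was not possible with 1 array per genotype. No paired analysis was possible because each genotype has 1 array. The number of arrays, and for Nog, Grem1 and the 6 genes below the floor on both arrays also the signal over the floor, limits the precision.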
